A study of Mus musculus with 16 samples.

Results

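The tumour necrosis factor (TNF) superfamily of secreted and membrane-bound ligands and their receptors was followed in RNA sequencing libraries of mouse dorsal skin. Members were all genes whose symbol begins with Tnfsf or Tnfrsf and a digit, together with Tnf, Lta, Ltb, Ltbr, Cd40, Cd40lg, Cd27, Cd70 and Fasl. The rule found 41 members among 55359 gene IDs. They comprised 17 ligands, 18 signalling receptors, 3 decoy receptors, the 2 receptors targeted in the knockout and 1 antisense RNA. Of these, 38 had enough reads to be tested among 17531 tested genes, namely 14 ligands, 23 receptors of all kinds and the antisense RNA Tnfsf13os.

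All 16 libraries were made from skin of male mice aged 8 weeks that is labelled telogen, the phase in which hair follicles rest. Mice labelled Tnfrsf1a/b KO (KO), a label for loss of the receptors TNFR1 and TNFR2, were set beside wild-type mice (WT). Each genotype was sampled after a treatment labelled 3xUVB, repeated exposure to ultraviolet B light (UVB), or without UVB (control), with 4 libraries in each of the 4 groups. The sources used here do not give the UVB dose, the time of sampling, the strain or the design of the knockout alleles. They also do not say whether each library came from its own animal. The p-values therefore cover the spread between libraries, part of which may be technical.

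Most ligands of the family are made as trimeric membrane proteins that can be shed, and they cluster their receptors on the target cell. Receptors with a death domain, such as those encoded by Tnfrsf1a, Tnfrsf10b, Tnfrsf21 and Tnfrsf25, can recruit caspase-activating adaptors, while others bind TRAF adaptors and activate NF-kB, and decoy receptors bind ligand without a full signal. In skin, keratinocytes, resident immune cells and fibroblasts all express members of the family, and TNF is among the cytokines released after UVB.

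Depth was 15644375 to 23200649 reads in genes per library. Levels are CPM, read counts scaled to library size with the TMM method of edgeR, and differences as log2 fold changes with their standard error (SE). A member was called when the p-value of edgeR's quasi-likelihood test, adjusted by the Benjamini-Hochberg method over all tested genes, was under 0.05. Summed markers of keratinocytes, the defining cells of epidermis, reached 19759 to 60580 CPM in KO UVB skin, 10354 to 17351 in KO control skin, 29078 to 38187 in WT UVB skin and 8763 to 12979 in WT control skin. The 10 markers of the growing (anagen) hair follicle went against a uniform telogen label. They summed to 17.9 to 32.4 CPM in KO UVB, 56.3 to 164 in KO control, 24.3 to 112 in WT UVB and 625 to 1672 in WT control libraries, with Krt33a and Krt72 at 0 in some. The hair cycle state therefore cannot be told apart from UVB and genotype in these groups. In bulk skin, fewer cells of a type and less RNA per cell cannot be told apart.

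Start-site sequences from the RefSeq promoter table (mouse build GRCm38.p6, not the build of the counts) covered 30 of the 41 members. Shown are 3 members called after UVB in KO skin, up to the first exon, and a short site of Tnfrsf9, the receptor called both after UVB and between genotypes. Capitals mark matches, on either strand, to the GC box GGGCGG in the first 3 and to a consensus NF-kB motif in the Tnfrsf9 site. The Tnfrsf12a window is chr17:23677469-23677699 on the minus strand, the Tnfrsf18 window is chr4:156026072-156026163 on the plus strand and the Tnfrsf21 window is chr17:43016305-43016554 on the plus strand. The Tnfrsf9 site is chr4:150927952-150927981 on the plus strand, before the downstream of its 2 starts in the RefSeq table. It lies inside an exon of Tnfrsf9 in GENCODE M21 (chr4:150927918-150928085), so it is not upstream of every annotated start.
Tnfrsf12a: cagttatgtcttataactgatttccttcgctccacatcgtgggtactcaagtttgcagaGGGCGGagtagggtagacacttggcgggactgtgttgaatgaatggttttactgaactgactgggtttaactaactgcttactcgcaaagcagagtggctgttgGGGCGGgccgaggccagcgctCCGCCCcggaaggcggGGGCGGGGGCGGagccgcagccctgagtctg
Tnfrsf18: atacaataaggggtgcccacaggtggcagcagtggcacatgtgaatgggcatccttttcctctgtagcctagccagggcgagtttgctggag
Tnfrsf21: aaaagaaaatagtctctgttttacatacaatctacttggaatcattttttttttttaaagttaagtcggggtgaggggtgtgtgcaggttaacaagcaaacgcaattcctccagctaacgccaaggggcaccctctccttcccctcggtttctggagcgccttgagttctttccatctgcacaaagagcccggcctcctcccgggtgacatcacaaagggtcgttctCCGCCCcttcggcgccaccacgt
Tnfrsf9 site: agctGGGGATTTCCCaggaggccctgctca
The Tnfrsf12a window held 5 GC boxes, the Tnfrsf21 window 1 and the Tnfrsf18 window none. The capitals of the Tnfrsf9 site span 2 overlapping matches to the NF-kB motif. The window before the upstream Tnfrsf9 start held 0 matches to it. Over all 32851 windows of 250 bases in the table, 32.7% held a GC box, 3.90% the NF-kB motif and 6.75% the AP-1 motif TGANTCA. Of the 34 windows of members, 14 held a GC box, 3 the NF-kB motif and 5 the AP-1 motif. Besides Tnfrsf9, the windows with the NF-kB motif were those of Ltb and Tnfrsf8, which edgeR called in no comparison. A match is a run of letters in a window, not evidence of binding.

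Averaged over the 16 libraries, KO and WT together, the 5 highest members per kilobase of exon were receptors. The highest level, averaged over the 16 libraries, was that of the death-domain receptor Tnfrsf1a at 46.0 CPM per kb, although it was one of the targeted genes. Next came Ltbr, the lymphotoxin beta receptor, at 25.2, the T cell costimulatory receptor Tnfrsf18 (GITR) at 11.8, the hair follicle receptor Tnfrsf19 (TROY) at 10.9 and the TWEAK receptor Tnfrsf12a at 9.88 CPM per kb. Among ligands, Tnfsf12 (TWEAK) stood highest at 9.62, followed by Ltb at 3.19 and Tnfsf10 (TRAIL) at 3.10 CPM per kb. Tnf itself reached 0.960 CPM per kb, and the lowest tested member was the lymphocyte receptor Tnfrsf8 at 0.122 CPM per kb. The order differed between groups, and in control skin of both genotypes the ligand Tnfsf12 was among the 5 highest. In WT control skin the targeted Tnfrsf1b had 15.1, Tnfsf12 11.03 and Tnfrsf19 10.7 CPM per kb. In KO control skin Tnfsf12 had 10.1, above Tnfrsf18 at 8.22 and Tnfrsf12a at 6.74 CPM per kb.

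**Figure D1:**
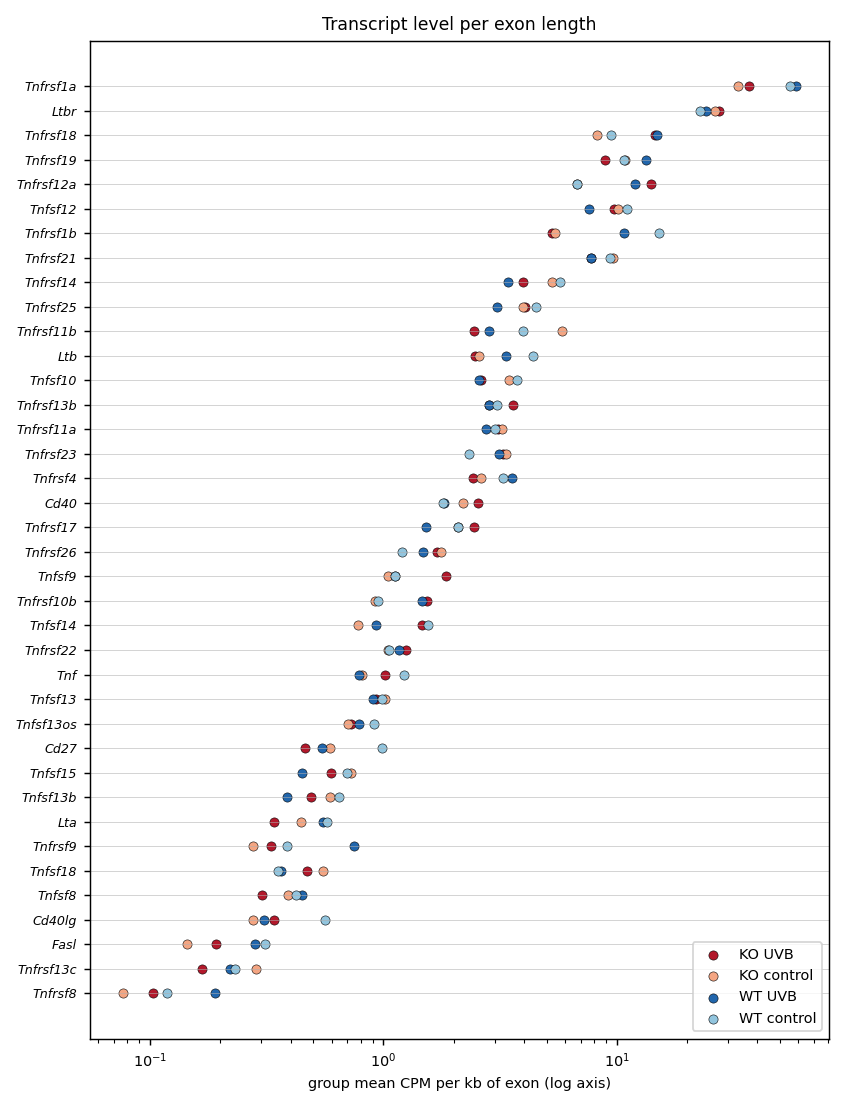
Group mean level of the 38 tested members in CPM per kb of exon on a log axis, one row per member ordered by the mean over all 16 libraries, and one point per group. Tnfrsf1a and Ltbr lie at the top and Tnfrsf8 at the bottom, with means over all libraries of 46.0, 25.2 and 0.122 CPM per kb.

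The targeted receptors were lower in KO skin and retained reads. Tnfrsf1a (ENSMUSG00000030341.18), the receptor for soluble TNF, had 96.9, 89.3, 105 and 92 CPM in KO UVB libraries, 82.2, 93.9, 84.6 and 82.9 in KO control, 151, 153, 162 and 140 in WT UVB and 146, 148, 133 and 145 in WT control libraries. Every KO library lay below every WT library. KO skin held 60.0% of the WT mean without UVB (log2 fold change -0.74, SE 0.07, adjusted p = 5.43e-05) and 63.2% with UVB (-0.66, SE 0.07, adjusted p = 0.000152). Tnfrsf1b (ENSMUSG00000028599.11), the receptor that prefers membrane-bound TNF, had 16.7, 15.6, 27.9 and 20.04 CPM in KO UVB, 23.7, 24.9, 18.1 and 16.4 in KO control, 51.7, 33.6, 41.7 and 36.3 in WT UVB and 69.1, 69.6, 48.3 and 44.4 CPM in WT control libraries. KO libraries again lay below all WT libraries. The KO mean was 35.9% of WT without UVB (log2 fold change -1.47, SE 0.21, adjusted p = 0.00206) and 49.1% with UVB (-1.02, SE 0.21, adjusted p = 0.0315). The counts are sums over each gene, so they do not show which exons the remaining reads came from. With UVB, the Tnfrsf1b call was lost on leaving out, one at a time, KO UVB library 2 and WT UVB libraries 1, 3 and 4, with adjusted p between 0.0594 and 0.0892, where the range over all alternatives was 0.000379 to 0.0892. UVB against control did not pass the threshold for either gene in edgeR; for Tnfrsf1b it gave -0.05 (SE 0.21, adjusted p = 0.878) in KO and -0.50 (SE 0.20, adjusted p = 0.102) in WT. For Tnfrsf1b in WT, limma gave -0.48 and called it at adjusted p = 0.0447, where the range over all alternatives was 0.0447 to 0.279.

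**Figure D2:**
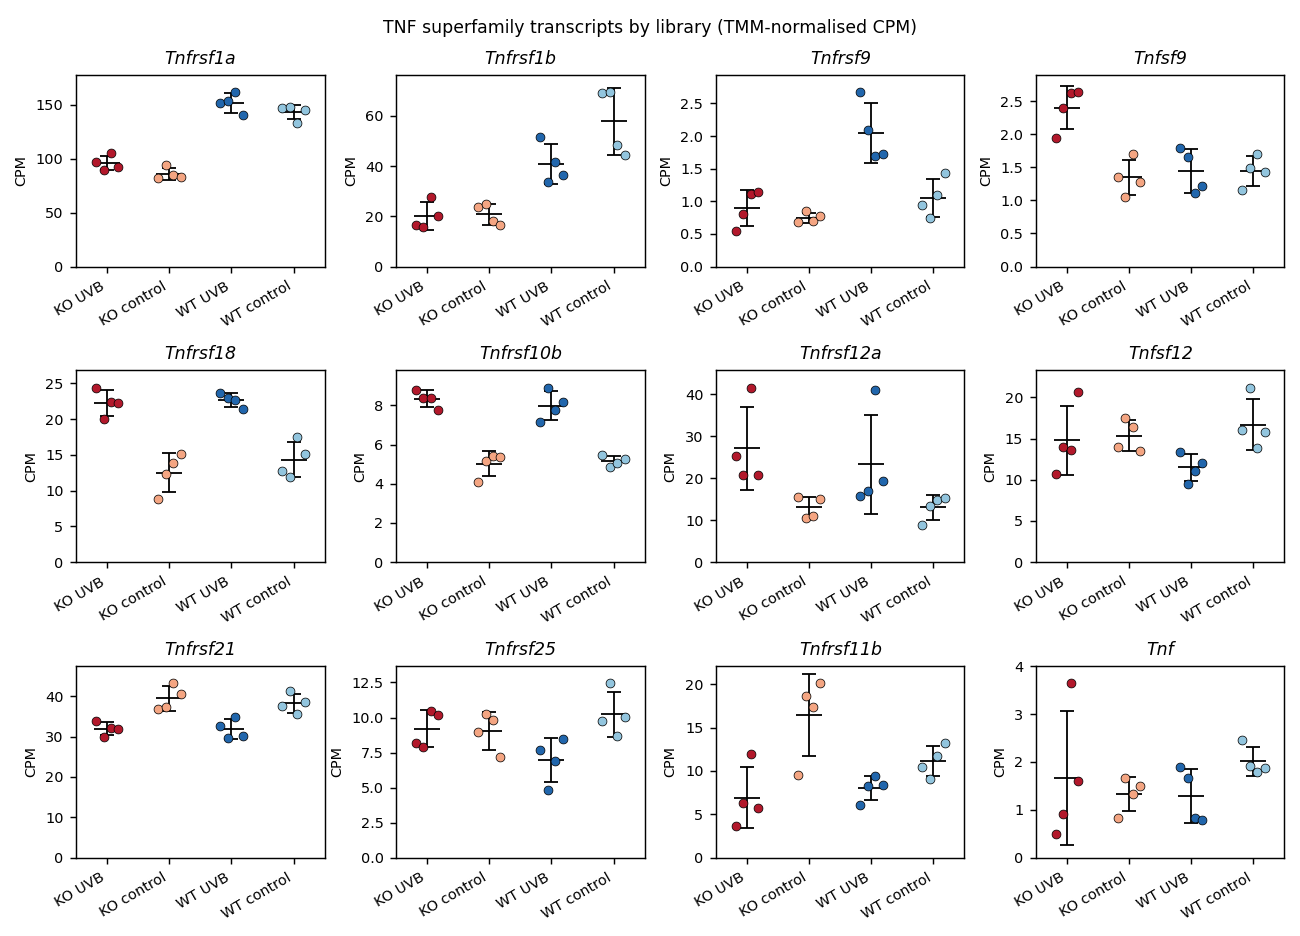
CPM of 12 members in each library, with KO UVB, KO control, WT UVB and WT control from left to right; points are libraries and bars the mean and SD of 4. The KO libraries of Tnfrsf1a and Tnfrsf1b lie below all WT libraries, the UVB libraries of Tnfrsf18 and Tnfrsf10b lie above the control libraries in both genotypes, and Tnf is highest in a single KO UVB library.

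The ligands of the targeted receptors were scarce and variable. Tnf (ENSMUSG00000024401.15) had 0.498, 0.913, 3.65 and 1.59 CPM in KO UVB libraries, 0.826, 1.65, 1.33 and 1.5 in KO control, 1.89, 1.66, 0.824 and 0.778 in WT UVB and 2.46, 1.92, 1.79 and 1.88 in WT control libraries. The KO control libraries all lay below the WT control libraries, and otherwise the groups overlapped. Its log2 fold change was 0.34 (SE 0.46) after UVB in KO and -0.63 (SE 0.46) after UVB in WT, with edgeR adjusted p of 0.611 and 0.356. The KO value turned to -0.38 without KO UVB library 3. That library had 372 CPM of summed neutrophil markers, against 35.4 in the lowest KO UVB library, 10.4 to 31.4 in KO control, 18.4 to 52.4 in WT UVB and 11.4 to 15.9 in WT control libraries, with Ly6g at 0 in some. The part of these cells in the Tnf value was not tested. Lta, which encodes lymphotoxin alpha and shares the TNF receptors, averaged 0.471 ± 0.354 CPM in KO UVB, 0.613 ± 0.147 in KO control, 0.762 ± 0.324 in WT UVB and 0.796 ± 0.247 in WT control skin (SD, n = 4 each), from 3 to 27 reads a library. It passed the threshold in none of the 5 comparisons in edgeR, with adjusted p between 0.467 and 0.928. With KO UVB libraries 3 and 4 both left out, Lta had a log2 fold change of -1.49 after UVB in KO, called at adjusted p = 0.0388, and limma gave -1.12, called at adjusted p = 0.0447, where the range over all alternatives was 0.0388 to 0.917.

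After UVB, 6 of 38 members passed the threshold in KO skin, where 32.3% of all tested genes were called. In WT skin 6 of 38 passed, where 18.8% were called. Of the 6 in each genotype, 5 were receptors, which make up 23 of the 38 tested members. That is 21.7% of the receptors in each genotype, and 1 of the 14 ligands was called in each, or 7.14%. Tnfrsf10b, Tnfrsf18 and Tnfrsf21 were called in both genotypes, which is 50% of each list. The overlap of the 2 lists over all tested genes was not computed. Of the 38 members, 24 had the same sign after UVB in both genotypes. The Pearson correlation of their log2 fold changes in KO and WT was 0.379. Neither the count of same signs nor the correlation was computed over all tested genes. The KO and WT comparisons share no libraries. CPM did not overlap between UVB and control libraries for 5 members in KO, beside 25.1% of all genes, and for 7 members in WT, beside 28.2% of all genes.

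Tnfrsf10b (ENSMUSG00000022074.7), the death-domain receptor for TRAIL and the only such signalling receptor in mice, was higher after UVB in both genotypes. It had 8.81, 8.39, 8.40 and 7.79 CPM in KO UVB libraries and 4.08, 5.17, 5.43 and 5.38 in KO control libraries. In WT skin it had 7.15, 8.92, 7.75 and 8.17 CPM with UVB and 5.45, 4.84, 5.07 and 5.29 without. UVB and control libraries did not overlap in either genotype. The rise was 1.66-fold in KO (log2 0.73, SE 0.11, adjusted p = 0.000306) and 1.55-fold in WT (log2 0.63, SE 0.11, adjusted p = 0.00129). Its ligand Tnfsf10 averaged 13.7 ± 5.70 CPM in KO UVB and 18.2 ± 5.32 in KO control skin, and 13.6 ± 2.83 in WT UVB and 19.7 ± 6.07 in WT control skin (SD, n = 4 each). The ligand had log2 fold changes of -0.40 (SE 0.29) in KO and -0.54 (SE 0.29) in WT, neither past the threshold (adjusted p = 0.299 and 0.203). Keratinocyte marker sums, like Tnfrsf10b, were higher in every UVB library than in any control library of the same genotype. Of the 8 markers summed, 5 were called higher and 1 lower after UVB in each genotype. Their part in the receptor's values was not tested.

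Tnfrsf18 (ENSMUSG00000041954.19) was likewise higher after UVB. Its level was 24.4, 20.1, 22.4 and 22.3 CPM in KO UVB libraries and 8.80, 12.3, 13.8 and 15.2 in KO control libraries. WT libraries had 23.7, 23.0, 22.7 and 21.4 CPM with UVB and 12.8, 12, 17.5 and 15.2 without. All UVB libraries exceeded all control libraries. Fold changes were 1.78 in KO (log2 0.83, SE 0.15, adjusted p = 0.000736) and 1.58 in WT (log2 0.66, SE 0.14, adjusted p = 0.00548). The 10 markers of T and NK cells, which carry this receptor, summed to 59.7 to 96.4 CPM in KO UVB, 70.1 to 95.9 in KO control, 63.3 to 97.5 in WT UVB and 85.4 to 133 in WT control libraries. These sums overlapped between UVB and control in both genotypes, while 2 of the 10 were called higher and 4 lower after UVB in KO, and 1 higher and 4 lower in WT. Their part in the receptor's values was not tested. Its ligand Tnfsf18 had 3 to 43 reads a library and passed no comparison, with log2 fold changes of -0.24 (SE 0.67) after UVB in KO and 0.05 (SE 0.70) in WT.

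Tnfrsf21 (ENSMUSG00000023915.6), the death-domain receptor known as DR6, was lower after UVB by a small amount. KO UVB libraries had 33.9, 29.9, 32.0 and 32.0 CPM and KO control libraries 36.7, 37.4, 43.3 and 40.5 CPM. In WT the values were 32.7, 29.7, 34.9 and 30.1 CPM with UVB and 37.6, 41.2, 35.6 and 38.5 CPM without. The groups did not overlap in either genotype. The log2 fold change was -0.30 in KO (SE 0.08, adjusted p = 0.00751) and -0.26 in WT (SE 0.08, adjusted p = 0.0268). With only the groups compared in the fit the KO value was -0.28 at adjusted p = 0.0501, the highest over all alternatives. The WT call was lost on leaving out, one at a time, WT UVB libraries 1, 2 and 4 and WT control libraries 1, 2 and 4, with adjusted p from 0.0579 to 0.112, where the range over all alternatives was 0.00512 to 0.112.

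In KO skin Tnfrsf12a and Tnfsf9 were also higher after UVB, and Tnfrsf11b was lower. Tnfrsf12a (ENSMUSG00000023905.16), the TWEAK receptor Fn14, a gene of injured and growing tissue, had 25.3, 20.8, 41.5 and 20.7 CPM in KO UVB and 15.6, 10.6, 11 and 14.9 in KO control libraries. Values in WT were 15.7, 17, 40.9 and 19.3 CPM with UVB and 8.81, 13.5, 14.8 and 15.1 without. UVB libraries lay above control libraries in both genotypes, and library 3 stood far above the others in each UVB group. The log2 fold change was 1.06 in KO (SE 0.30, adjusted p = 0.0155) and 0.83 in WT (SE 0.30, adjusted p = 0.0695). Without KO UVB library 3 the KO value was 0.78 with adjusted p = 0.0553, where the range over all alternatives was 0.00258 to 0.0758, and the WT value was then called at adjusted p = 0.0399. The WT value was also called without WT UVB library 1, at adjusted p = 0.0379, and by DESeq2, at adjusted p = 0.0314, where the range over all alternatives was 0.0314 to 0.270.

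The TWEAK gene itself, Tnfsf12 (ENSMUSG00000097328.8), was called after UVB in WT, where it was lower. KO UVB libraries had 10.7, 14, 13.7 and 20.7 CPM, and KO control libraries 14, 17.5, 16.5 and 13.5 CPM, which overlapped. WT UVB libraries had 13.4, 9.49, 11.1 and 12 CPM and lay below the 16, 21.2, 13.9 and 15.8 CPM of WT control libraries. The log2 fold change was -0.06 in KO (SE 0.18, adjusted p = 0.839) and -0.54 in WT (SE 0.18, adjusted p = 0.0497). The WT call stood at the threshold and held under 10 of 26 alternatives, with adjusted p of 0.0129 to 0.159. It was lost on leaving out, singly, any WT library but WT UVB library 1 and WT control library 3, any KO control library, and KO UVB libraries 2 and 3. Tnfsf12 overlaps Tnfsf13 and a fused transcript on the same strand, so its count is uncertain.

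Tnfsf9 and Tnfrsf9 encode the 4-1BB ligand and its receptor, a costimulatory pair of activated lymphocytes and antigen-presenting cells, and each was called in one genotype. Tnfsf9 (ENSMUSG00000035678.9) had 1.94, 2.40, 2.63 and 2.64 CPM in KO UVB libraries, above the 1.36, 1.06, 1.7 and 1.28 CPM of KO control libraries. In WT it had 1.80, 1.66, 1.11 and 1.22 CPM with UVB and 1.16, 1.49, 1.7 and 1.43 CPM without, and these overlapped. The log2 fold change was 0.84 in KO (SE 0.21, adjusted p = 0.00663) and 0.01 in WT (SE 0.21, adjusted p = 0.987). All KO UVB libraries also lay above all WT UVB libraries (log2 0.72, SE 0.21, adjusted p = 0.102), a difference that limma called at adjusted p = 0.0306, where the range over all alternatives was 0.0306 to 0.279. Without KO UVB libraries 3 and 4 together, the KO effect was 0.69 with adjusted p = 0.0564, where the range over all alternatives was 0.00241 to 0.0564. The difference between the 2 UVB effects was 0.83 (SE 0.30), with adjusted p = 0.267 in edgeR's quasi-likelihood test.

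Tnfrsf9 (ENSMUSG00000028965.14) had 0.547, 0.799, 1.11 and 1.14 CPM in KO UVB libraries and 0.680, 0.848, 0.692 and 0.776 in KO control libraries. WT libraries had 2.68, 2.09, 1.7 and 1.72 CPM with UVB and 0.939, 0.744, 1.09 and 1.43 CPM without. WT UVB libraries lay above all libraries of the other 3 groups. The rise after UVB in WT was 1.93-fold (log2 0.95, SE 0.25, adjusted p = 0.0163), and in KO the log2 fold change was 0.26 (SE 0.28, adjusted p = 0.490). KO skin was lower than WT skin with UVB (log2 -1.18, SE 0.26, adjusted p = 0.0404) and had -0.50 (SE 0.27, adjusted p = 0.559) without UVB. The difference between the UVB effects was -0.68 (SE 0.37, adjusted p = 0.458), so the effects were not shown to differ. The gene had 11 to 58 reads a library. The call between genotypes held under 14 of 25 alternatives, with adjusted p of 0.00548 to 0.129. Leaving out, singly, KO UVB libraries 2 and 3, KO control library 3, WT UVB libraries 1, 2 and 4 or WT control libraries 1 and 3 ended it. The call after UVB in WT was lost without WT control library 1 or 2, at adjusted p of 0.0507 and 0.0527, where the range over all alternatives was 0.00630 to 0.0527.

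Tnfrsf11b (ENSMUSG00000063727.4) encodes osteoprotegerin, the secreted decoy for RANKL that also binds TRAIL. It had 3.68, 6.33, 11.9 and 5.74 CPM in KO UVB libraries and 9.53, 18.6, 17.4 and 20.1 in KO control libraries. KO UVB library 3 exceeded KO control library 1, so the groups overlapped. WT libraries had 6.09, 8.21, 9.40 and 8.39 CPM with UVB and 10.5, 9.11, 11.7 and 13.2 CPM without. The log2 fold change was -1.24 in KO (SE 0.29, adjusted p = 0.00501) and -0.47 in WT (SE 0.29, adjusted p = 0.271), and the KO call held under all 26 alternatives. RANKL itself, Tnfsf11, had 1 to 12 reads a library and was not tested, while its receptor Tnfrsf11a averaged 18.6 ± 5.31 CPM in KO UVB, 19.3 ± 1.75 in KO control, 16.5 ± 0.872 in WT UVB and 18 ± 2.70 in WT control skin (SD, n = 4 each). Anagen follicle markers were lower after UVB in both genotypes, with 9 of 10 called in each, and their part in these values was not tested.

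In WT skin Tnfrsf25 (ENSMUSG00000024793.15), the death-domain receptor DR3 of T cells, was lower after UVB. KO libraries had 8.16, 7.93, 10.5 and 10.2 CPM with UVB and 8.94, 10.3, 9.80 and 7.15 CPM without, and these overlapped. WT UVB libraries had 7.71, 4.79, 6.88 and 8.44 CPM, below the 9.74, 12.5, 8.65 and 10.04 CPM of WT control libraries. The log2 fold change was 0.02 in KO (SE 0.17, adjusted p = 0.928) and -0.55 in WT (SE 0.17, adjusted p = 0.0377). Leaving out, singly, WT UVB libraries 2 and 3 or WT control libraries 1, 2 and 4 ended the WT call, with adjusted p from 0.0661 to 0.117, where the range over all alternatives was 0.0152 to 0.117. Its ligand Tnfsf15 had log2 fold changes of -0.28 (SE 0.32) in KO and -0.62 (SE 0.33) in WT, neither past the threshold.

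Among the 14 tested ligands, 5 had a log2 fold change above 0 after UVB in KO and 3 in WT. Their median was -0.09 in KO and -0.46 in WT, beside -0.02 and -0.03 over all tested genes. The median of the 23 receptors was 0.02 in KO and 0.08 in WT. Of the single ligands in WT, edgeR called Tnfsf12 alone. Tnfsf13b (BAFF), for B cell survival, had -0.74 (SE 0.32, adjusted p = 0.117) and Tnfsf14 (LIGHT) -0.73 (SE 0.37, adjusted p = 0.177). The LIGHT receptor Tnfrsf14 also had -0.73 (SE 0.28, adjusted p = 0.0783) in WT. All 3 were called lower by limma, and Tnfrsf14 also by DESeq2. In WT the markers of B and plasma cells summed to 2.28 to 9.64 CPM with UVB and 16.7 to 32.5 CPM in control libraries, with 3 called lower. Langerhans and dendritic cell markers summed to 1296 to 2160 CPM with UVB and 2162 to 3110 CPM in WT control libraries, with 1 of 6 called lower. The part of these cells in the ligand values was not tested.

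**Figure D3:**
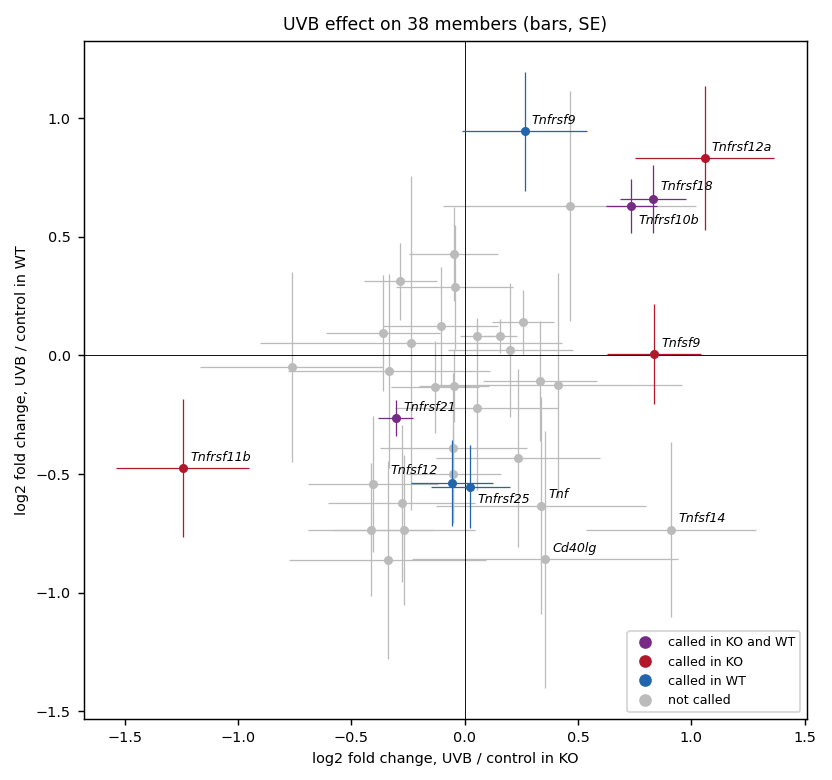
Log2 fold change of 38 members after UVB in KO (horizontal axis) and in WT (vertical axis); bars are SE and colours show where a member was called. Tnfrsf18 and Tnfrsf10b lie in the upper right with Tnfrsf12a, Tnfsf9 lies on the horizontal axis at 0.84, and Tnfrsf9 lies highest at 0.95.

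Between genotypes, the called members were few. Without UVB, 2 of 38 were called, beside 1.69% of all tested genes, and both were the targeted receptors. With UVB, 3 of 38 were called, beside 0.856% of all tested genes, namely the targeted receptors and Tnfrsf9. CPM of KO and WT libraries did not overlap for 8 members without UVB, beside 7.68% of all genes, with 6 lower in KO (4.63% of all genes) and 2 higher (3.05%). With UVB this held for 6 members, beside 8.16% of all genes, with 5 lower in KO (3.89%) and 1 higher (4.27%).

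Besides the targeted genes, the 4 non-overlapping members that were lower in KO control skin were all ligands. Tnfsf14 (ENSMUSG00000005824.8), the T cell ligand LIGHT, had 1.56, 1.23, 1.60 and 1.39 CPM in KO control and 3.26, 2.23, 2.67 and 3.27 CPM in WT control libraries (log2 -0.99, SE 0.37, adjusted p = 0.293). Ltb, the membrane anchor of lymphotoxin, had 2.92, 3.26, 4.53 and 4.94 CPM in KO control and 8.72, 5.08, 6.51 and 6.18 CPM in WT control libraries (log2 -0.77, SE 0.32, adjusted p = 0.367). Fasl, the death ligand of cytotoxic lymphocytes, had 3 to 8 reads in KO control and 11 to 14 reads in WT control libraries (log2 -1.07, SE 0.52, adjusted p = 0.476). Tnf was the last of the 4 (log2 -0.60, SE 0.46, adjusted p = 0.741). None of these differences passed the threshold in edgeR's quasi-likelihood test on all 4 groups. With only the groups compared in the fit, Tnfsf14 was called at adjusted p = 0.0283, where the range over all alternatives was 0.0283 to 0.535. Summed T and NK cell markers were 70.1 to 95.9 CPM in KO control and 85.4 to 133 CPM in WT control libraries. These sums overlapped, and 0 of the 10 markers were called. The 6 B and plasma cell markers summed to 2.58 to 8.04 CPM in KO control and 16.7 to 32.5 CPM in WT control libraries. Of these, 2 were called lower and 0 higher in KO, and Ms4a1 and Cd79a were at 0 in some libraries. Anagen follicle markers summed to 56.3 to 164 CPM in KO control and 625 to 1672 CPM in WT control libraries. Of the 10, 6 were called lower and 0 higher in KO. The part of these cells and of the hair follicle in the ligand values was not tested.

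On the higher side in KO control skin lay Ltbr and Tnfrsf23. Ltbr (ENSMUSG00000030339.8) had 58.3, 59.9, 63.6 and 66.3 CPM in KO control and 54.0, 51.3, 55.7 and 53.5 CPM in WT control libraries (log2 0.21, SE 0.07, adjusted p = 0.244). With UVB it had 55.8, 64.1, 69.4 and 68.4 CPM in KO and 57.6, 58.2, 58.8 and 52.4 CPM in WT libraries, which overlapped (log2 0.18, SE 0.07, adjusted p = 0.235). Ltbr lies next but 1 to the targeted Tnfrsf1a on chromosome 6, with 1 protein-coding gene between them, and Cd27 with 3. Cd27 had log2 fold changes between KO and WT of -0.74 (SE 0.41) without UVB and -0.22 (SE 0.44) with UVB. Tnfrsf23, a mouse decoy TRAIL receptor, had 14.2, 11.5, 14.1 and 13.4 CPM in KO control and 8.27, 7.93, 11.2 and 9.27 CPM in WT control libraries (log2 0.53, SE 0.20, adjusted p = 0.289). Its near copies Tnfrsf22 and Tnfrsf26 had -0.01 (SE 0.14) and 0.53 (SE 0.26). Reads that match more than 1 of these paralogs may be missing from the counts or misplaced.

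With UVB, Tnfrsf19 and Tnfrsf4 lay lower in KO libraries without overlap. Tnfrsf19 had 44.9, 45.6, 38.1 and 40.5 CPM in KO UVB and 60.8, 70.8, 70.4 and 49.9 CPM in WT UVB libraries (log2 -0.57, SE 0.16, adjusted p = 0.101). It was called by DESeq2, at adjusted p = 0.0324, and by edgeR without KO control library 1, at adjusted p = 0.0487, where the range over all alternatives was 0.0324 to 0.276. Its UVB effect was -0.28 (SE 0.16) in KO and 0.31 (SE 0.16) in WT, a difference of -0.60 (SE 0.23, adjusted p = 0.292). Tnfrsf4, the T cell costimulatory receptor OX40, had 2.59, 2.11, 3.83 and 4.69 CPM in KO UVB and 4.75, 4.74, 5.19 and 4.78 CPM in WT UVB libraries (log2 -0.55, SE 0.25, adjusted p = 0.297). In limma its difference was -0.91, called at adjusted p = 0.0220, where the range over all alternatives was 0.0220 to 0.493. Its ligand Tnfsf4 was too low to test, with 7, 4, 5 and 9 reads in KO UVB, 0, 0, 0 and 1 in KO control, 3, 6, 6 and 6 in WT UVB and 2, 0, 1 and 1 in WT control libraries. Each UVB library held more Tnfsf4 reads than any control library of either genotype.

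Several members share chromosome 4 with the targeted Tnfrsf1b. In the RefSeq gene order of GRCm38, Tnfrsf8 adjoins it with 0 protein-coding genes between, Tnfrsf9 lies 72 genes away, Tnfrsf25 87, Tnfrsf14 116, Tnfrsf4 156 and Tnfrsf18 157. Of these, Tnfrsf9 was called between genotypes. The adjacent Tnfrsf8, the lymphocyte receptor CD30, had 2 to 16 reads a library and log2 fold changes of -0.67 (SE 0.55) without UVB and -0.84 (SE 0.50) with UVB, neither past the threshold. Whether sequence linked to the targeted alleles differs between KO and WT was not tested.

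The interaction, in which the WT effect of UVB is subtracted from the KO effect, was called for 0 of 38 members, beside 0.0228% of all tested genes. At an unadjusted p under 0.05, 4 members passed in edgeR, 4 in DESeq2 and 6 in limma, and the last 2 tools also called 0 after adjustment. That is 10.5%, 10.5% and 15.8% of the members, beside 12.8%, 13.4% and 21.3% of all tested genes. The 4 in edgeR were Tnfsf14, Tnfsf9, Tnfrsf19 and Tnfrsf25. Tnfsf14 had the largest difference of the 38, at 1.64 (SE 0.52, adjusted p = 0.230). KO UVB libraries had 1.09, 2.11, 5.22 and 2.37 CPM of Tnfsf14, and WT UVB libraries 2.68, 1.61, 1.5 and 1.06 CPM. Its UVB effect was 0.91 (SE 0.37, adjusted p = 0.0747) in KO and -0.73 (SE 0.37, adjusted p = 0.177) in WT. Leaving out 1 library at a time, the difference ranged from 1.097 to 1.93. Of the 14 ligands, 11 had a difference above 0, with a median of 0.41, beside 0.02 over all tested genes. The interaction uses the libraries of every comparison above.

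**Figure D4:**
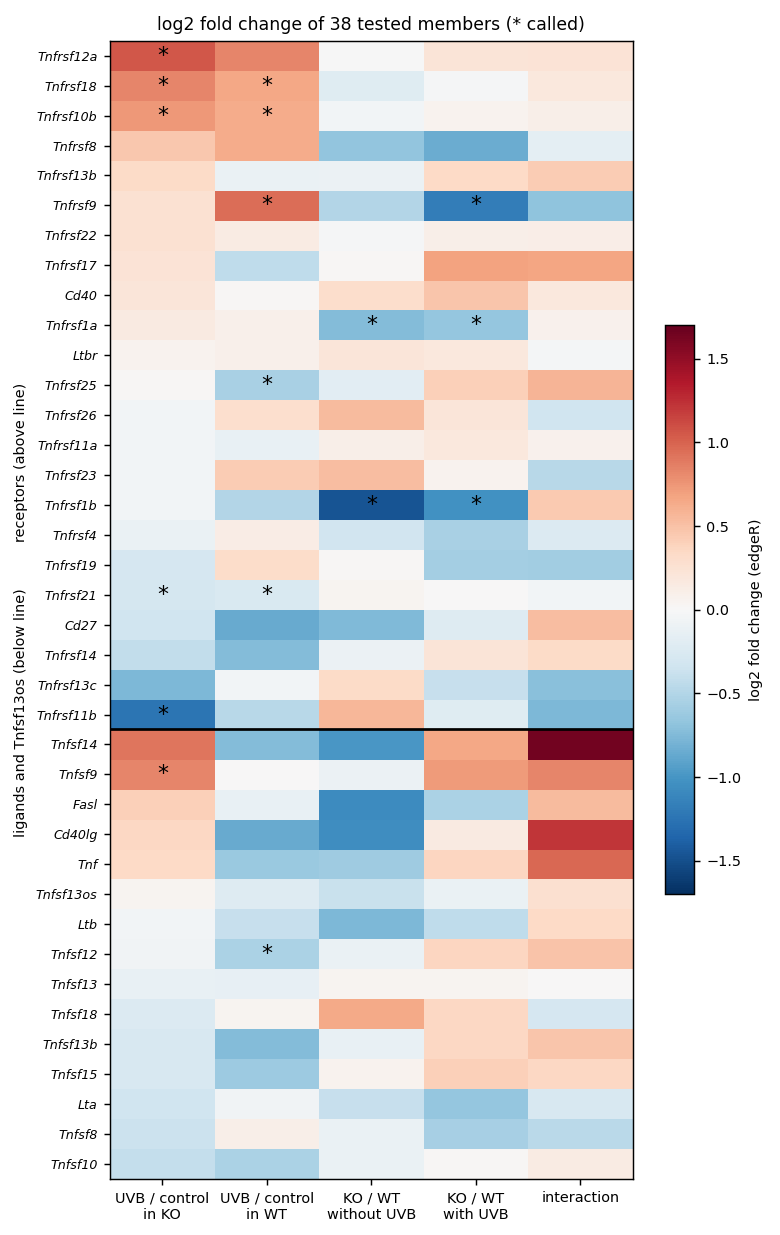
Log2 fold change of the 38 tested members in the 5 comparisons, receptors above the line and ligands with Tnfsf13os below it, each ordered by the UVB effect in KO; asterisks mark called members. The 2 targeted receptors are called in both comparisons of KO with WT, and no asterisk stands in the interaction column.

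Among the genes of B cell and plasma cell survival, edgeR called none in any comparison, and limma called the ligand Tnfsf13b, lower after UVB in WT. Tnfrsf13b (TACI) averaged 10.2 ± 3.55 CPM in KO UVB, 8.07 ± 1.89 in KO control, 8.03 ± 0.814 in WT UVB and 8.66 ± 2.30 in WT control skin. Tnfrsf17 (BCMA) averaged 1.99 ± 1.06 CPM in KO UVB, 1.69 ± 0.386 in KO control, 1.24 ± 0.315 in WT UVB and 1.7 ± 0.805 in WT control skin. Tnfrsf13c (BAFF receptor) had means of 0.342 ± 0.0854 CPM in KO UVB, 0.584 ± 0.286 in KO control, 0.450 ± 0.213 in WT UVB and 0.471 ± 0.133 in WT control skin (SD, n = 4 each throughout). The B and plasma cell markers summed to 1.74 to 4.28 CPM in KO UVB and 2.28 to 9.64 CPM in WT UVB libraries, with the control values given above, and their part in these levels was not tested. The ligand Tnfsf13 (APRIL) averaged 1.52 ± 0.258 CPM in KO UVB, 1.66 ± 0.272 in KO control, 1.47 ± 0.254 in WT UVB and 1.61 ± 0.240 in WT control skin. Its antisense neighbour Tnfsf13os averaged 0.804 ± 0.272 CPM in KO UVB, 0.778 ± 0.348 in KO control, 0.872 ± 0.247 in WT UVB and 1.02 ± 0.268 in WT control skin.

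Cd40, which licenses antigen-presenting cells, averaged 8.62 ± 3.45 CPM in KO UVB, 7.50 ± 2.68 in KO control, 6.22 ± 1.07 in WT UVB and 6.12 ± 0.986 in WT control skin. Its ligand Cd40lg, made by activated T cells, had 2 to 20 reads a library. Its log2 fold change after UVB was 0.36 (SE 0.59) in KO and -0.86 (SE 0.54) in WT, neither past the threshold. Tnfsf8, the CD30 ligand, averaged 1.15 ± 0.438 CPM in KO UVB, 1.48 ± 0.199 in KO control, 1.71 ± 0.404 in WT UVB and 1.60 ± 0.122 in WT control skin. Cd70, the ligand of CD27, had 0 to 4 reads a library and was not tested.

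Downstream of the receptors, the list of adaptors, death effectors and related receptors had 39 members, all tested. After UVB in KO skin 7 were higher and 4 lower in edgeR, which is 28.2% of the list beside 32.3% of all tested genes. The count of 11 fell to 7 without KO control library 2 and to 5 with only the groups compared in the fit. It was 14 with DESeq2 and 15 with limma. The nerve growth factor receptor gene Ngfr, left out of the members by its symbol, had log2 -1.13 (SE 0.16, adjusted p = 0.000203). The ectodysplasin receptor gene Edar, needed for hair placodes, had -1.49 (SE 0.29, adjusted p = 0.00143), and the necroptosis kinase gene Ripk3 had 0.99 (SE 0.19, adjusted p = 0.00144). After UVB in WT skin 3 were higher and 1 lower, 10.3% of the list beside 18.8% of all tested genes. The count of 4 was 2 to 5 on leaving out 1 library, 7 with only the groups compared and 10 with limma. The adaptor gene Traf6 rose by 0.64 (SE 0.12, adjusted p = 0.00132), and the kinase genes Map3k5 and Map3k7 (TAK1) changed by -0.47 (SE 0.10, adjusted p = 0.00431) and 0.24 (SE 0.07, adjusted p = 0.0198). The Map3k7 call was lost on leaving out, singly, WT UVB libraries 2 and 4 and WT control library 2, at adjusted p of 0.0515 to 0.0623, where the highest over all alternatives was 0.130. Between genotypes without UVB, edgeR, DESeq2 and limma each called 0 and each had 5 at an unadjusted p under 0.05. With UVB, edgeR called 0 (9 unadjusted), and DESeq2 called Edar, lower in KO, and Ripk3, higher in KO, to which limma added Birc2, lower in KO. For the difference between UVB effects edgeR called 0 (6 unadjusted), while DESeq2 and limma each called Ngfr and Traf4. Median log2 fold changes of the list were -0.002 in KO and 0.03 in WT, beside -0.02 and -0.03 over all genes.

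The list of NF-kB subunits and target genes had 29 tested of 31. After UVB in KO skin 9 were higher and 1, the inhibitor gene Nfkbia, was lower in edgeR, which is 34.5% of the list beside 32.3% of all tested genes. The count of 10 fell to 6 at a mean count of at least 50 and to 5 with only the groups compared, and was 7 to 12 on leaving out 1 library. DESeq2 and limma each called 8, and limma called further genes lower besides Nfkbia. Ptgs2, which encodes cyclooxygenase-2, rose by 1.96 (SE 0.39, adjusted p = 0.00193), Gadd45b by 0.41 (SE 0.09, adjusted p = 0.00313) and Ier3 by 0.65 (SE 0.16, adjusted p = 0.00610). After UVB in WT skin 1 was higher, Gadd45b at 0.39 (SE 0.09, adjusted p = 0.00721), and 1 lower, the adhesion molecule gene Vcam1 at -0.96 (SE 0.31, adjusted p = 0.0432). These 2 are 6.90% of the list, beside 18.8% of all tested genes, and the count was 1 to 5 on leaving out 1 library, with 5 without KO UVB library 3 and with only the groups compared. Vcam1 was also the single gene of the list called between genotypes without UVB in edgeR, at -1.32 (SE 0.32, adjusted p = 0.0472). That call held under 14 of 26 alternatives, and the UVB call of Vcam1 under 18 of 26, with adjusted p up to 0.163 and 0.125. Between genotypes with UVB, edgeR called 0 (8 at an unadjusted p under 0.05), DESeq2 called Ptgs2 and limma Ptgs2 and Ier3, all higher in KO. Leaving out KO UVB library 1 gave 2 in edgeR, and leaving out KO UVB library 4 gave 3. For the difference between UVB effects edgeR, DESeq2 and limma each called 0, with 4, 4 and 3 at an unadjusted p under 0.05. The median of the list was 0.22 after UVB in KO and 0.04 in WT, beside -0.02 and -0.03 over all genes. KO UVB skin includes library 3 with its neutrophil marker sum of 372 CPM, whose part in the list's values was not tested.

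Single libraries carried many of the extreme values of the family. Within the KO UVB group, library 1 had the lowest value of the 4 for 23 of the 38 members, and library 3 the highest for 17. KO UVB library 1 also had the highest keratinocyte marker sum of that group, at 60580 CPM, beside 27799 CPM in library 3. In the WT UVB group, library 1 had the highest value for 18 of the 38 members and for 11 of the 14 ligands. The share of all tested genes at the extremes of these libraries was not computed. The counts are therefore not shown to be particular to the family. The part of these differences in cell makeup in the members' values was not tested.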

How the data were processed

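Total RNA was poly(A)-enriched and made into directional libraries, per the labels' protocols. The deposited values are raw read counts per gene, made by the authors with STAR on GRCm39, per the submitters' processing notes, with no STAR version there. Column 4 of each file was used, since 94.7 to 96.1% of stranded reads lay in it. A combined table without a header held 17 value columns, which were not used. Summary lines stayed out of library sizes: unmapped reads were 10.7 to 19.5% of each library, reads in no feature 7.25 to 10.2% and ambiguous reads 1.18 to 1.42%. The line for multimapping reads was 0% in each library. Gene names, exon lengths and gene order came from annotations of GRCm38, and IDs without a name held 1.23% of reads.

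Counts were fitted with edgeR 4.0.16 in R 4.3.3 (filterByExpr, TMM factors 0.940 to 1.07, robust quasi-likelihood, 1 model of 4 groups), and p-values were adjusted by Benjamini-Hochberg over 17531 genes. The SE is that implied by the test. The code was tested on simulated data. DESeq2 1.42.0, limma 3.58.1 and other settings were alternatives. A further gene fixed for the list of B and plasma cell markers is not reported here, and the sum is over the other 6. Members, lists and tests were chosen with earlier results of these data known. The naming rule takes the targeted receptors, every called member, Tnf and Lta in full, the other members by level or range, neighbours of the targeted genes, and from each pathway list the 3 called genes with the smallest adjusted p in a comparison. Ltbr, Ltb, Fasl, Tnfsf14, Tnfrsf4, Tnfrsf19, Tnfrsf23, Tnfsf4 and Nfkbia were given more room after their values were seen. Pairs of libraries within a group differed by more than sampling noise (chi-square per degree of freedom 14.3 to 151). Fold changes of members with few reads depend on the prior count of the fit.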

Additional observations from a re-analysis of the deposited data

Results flagged for a closer look

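In 152 sets of 4 libraries (38 members in 4 groups), 10 had a highest or lowest library far from the other 3 by Dixon's ratio test, where chance sets apart about 1 in 20. Tnfrsf12a, the TWEAK receptor, had 40.9 CPM in WT UVB library 3, where the others had 15.7 to 19.3 CPM. Cd40 had 11.5 CPM in KO control library 1, beside 5.64 to 6.61 in the others, and the same library had the low value of Cd27, 0.680 CPM, beside 1.54 to 1.72. WT control library 1 stood high for the death ligand Tnfsf10 (28.7 CPM, others 15.8 to 18) and for the DR3 ligand Tnfsf15 (3.13 CPM, others 2.01 to 2.17). Lta was high in KO control library 4 (0.832 CPM, others 0.532 to 0.551) and in WT UVB library 1 (1.25 CPM, others 0.556 to 0.630). Tnfsf18, the GITR ligand, had 1.66 CPM in WT control library 4 and 0.262 to 0.496 in the others. The remaining differences were small: Tnfrsf22 had 4.93 CPM in KO UVB library 1 and 5.36 to 5.42 in the others, and Tnfrsf4 had 5.19 CPM in WT UVB library 3 and 4.74 to 4.78 in the others.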

How the results depend on the processing

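Members called without UVB between genotypes were 2 when any 1 library was left out, and 0 were called for the interaction under every alternative run. Leaving out 1 library gave 5 to 7 members after UVB in KO, 2 to 7 after UVB in WT and 1 to 4 between genotypes with UVB. In WT after UVB, limma called 12. Between genotypes with UVB, limma called 5, and 1 was called with no filter beyond 1 read, with the replicate block and with only the groups compared. The labels state no pairing by replicate number. Deviations of the 24 same-numbered pairs correlated at -0.403 to 0.219, and 5 of 16 libraries correlated best with their own number. These values gave no clear sign of a pairing, but differences in cell makeup could hide one. For all genes between genotypes with UVB, 150 were called, 658 with DESeq2, 1117 with limma, 77 with the replicate block, 79 with only the groups compared and 59 to 487 on leaving out 1 library. For the interaction over all genes, 4 were called, 207 with DESeq2, 459 with limma and 2 to 110 on leaving out 1 library. After UVB in KO, 5666 were called and 3506 with only the groups compared, and after UVB in WT 3290, 5117 with limma and 2039 to 3707 on leaving out 1 library. Without UVB between genotypes 297 were called, 452 with DESeq2, 589 with limma, 161 to 362 on leaving out 1 library and 147 at a mean count of at least 50.

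Directions of uncalled values turned as follows. Tnf after UVB in KO was -0.31 with limma and -0.92 without KO UVB libraries 3 and 4, with -0.38 to 0.64 on leaving out 1 library; between genotypes with UVB it was -0.077 and -0.89, with -0.36 to 0.66, and its interaction was -0.29 without those libraries. Tnfrsf9 after UVB in KO was -0.16 without them, Tnfrsf1a after UVB in WT -0.0102 with library totals, and Tnfrsf10b between genotypes without UVB 0.01 with limma and -0.083 to 0.0465 on leaving out 1 library. Leaving out 1 library gave -0.24 to 0.0576 for Tnfrsf1b and -0.25 to 0.0692 for Tnfsf12 after UVB in KO, -0.39 to 0.16 for Lta after UVB in WT, -0.0868 to 0.0173 for Tnfrsf18 and -0.50 to 0.0356 for Cd27 between genotypes with UVB, and -0.86 to 0.0651 for the Lta interaction. The cause was not tested. Members with under 20 reads in some libraries, such as Tnfrsf9, Lta and Fasl, are limited by depth.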
